A study of Mus musculus with 6 samples.

Results

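CXC chemokine ligands are small secreted proteins named for a pair of cysteines set apart by 1 residue near the amino end. They were examined here in LPS-stimulated BV2 cells, an immortalized mouse microglial line, with and without PGC-1α overexpression. The members were the mouse genes Cxcl1, Cxcl2, Cxcl3, Cxcl9, Cxcl10, Cxcl11, Cxcl12, Cxcl14 and Cxcl16, found through the transcript accession that the array design gives to each probe, and every matching probe was kept. Of these 9 genes, 8 had at least 1 probe, out of 23462 genes matched on the arrays, and they had 11 probes in all out of 56605. No probe was matched to Cxcl11, which the RefSeq table of the mouse build GRCm38 lists as a transcribed pseudogene, so its level was not analysed here. Of the 11 probes, 7 (4 genes) were bright enough to be tested.

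RNA had been hybridized to 6 single-colour Agilent arrays, 3 of BV2 cells without PGC-1α overexpression (control) and 3 of BV2 cells labelled as overexpressing PGC-1α, a transcriptional coactivator known for its role in mitochondrial biogenesis. All 6 received LPS, the bacterial cell wall component that activates microglia, and no unstimulated array belongs to the comparison, so the values describe levels after LPS and not induction by it. The cell culture methods state 500 ng/ml LPS for 6 h without naming the arrays. PGC-1α was delivered by a lentiviral vector in which a ubiquitin promoter drives expression, with EGFP and a puromycin resistance gene, and infected cells were selected with puromycin. The labels do not say whether the control arrays came from cells given an empty lentivirus, nor whether arrays of 1 group came from separate cultures, so p-values measure only the spread between these samples.

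In the innate immune response, LPS acts through Toll-like receptor 4 on NF-κB and, through an autocrine type I interferon loop, on interferon-stimulated genes. Cxcl1, Cxcl2 and Cxcl3 are classical NF-κB targets that attract neutrophils through Cxcr2. Cxcl9, Cxcl10 and, where its gene is intact, Cxcl11 are interferon-induced ligands of Cxcr3 that attract T cells and NK cells. Cxcl12 is a homeostatic ligand of Cxcr4, Cxcl14 is a constitutively expressed chemokine of many tissues, and Cxcl16 is made as a transmembrane protein that binds Cxcr6 and can be shed from the surface.

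The promoters of the neutrophil-attracting ligands and of Cxcl10 are shown because these 4 inflammatory genes are the ones in which a match to the NF-κB consensus was found. The sequences are the 250 bases before the RefSeq transcript start, 5′ to 3′ on the gene's own strand, on the mouse build GRCm38.p6, and capitals mark the matches to the motifs searched. They lie at chr5:90890995-90891244 on the plus strand for Cxcl1, at chr5:90903649-90903898 on the plus strand for Cxcl2, at chr5:90785851-90786100 on the plus strand for Cxcl3 and at chr5:92348890-92349139 on the minus strand for Cxcl10.
Cxcl1: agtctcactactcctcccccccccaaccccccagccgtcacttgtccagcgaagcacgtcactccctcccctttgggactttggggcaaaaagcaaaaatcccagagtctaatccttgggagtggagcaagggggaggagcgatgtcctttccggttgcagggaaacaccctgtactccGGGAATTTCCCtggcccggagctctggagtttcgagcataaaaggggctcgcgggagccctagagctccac
Cxcl2: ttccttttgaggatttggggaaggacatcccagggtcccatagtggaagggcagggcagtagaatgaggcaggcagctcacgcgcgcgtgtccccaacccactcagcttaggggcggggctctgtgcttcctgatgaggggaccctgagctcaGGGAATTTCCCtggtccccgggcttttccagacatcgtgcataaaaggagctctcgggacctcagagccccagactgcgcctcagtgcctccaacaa
Cxcl3: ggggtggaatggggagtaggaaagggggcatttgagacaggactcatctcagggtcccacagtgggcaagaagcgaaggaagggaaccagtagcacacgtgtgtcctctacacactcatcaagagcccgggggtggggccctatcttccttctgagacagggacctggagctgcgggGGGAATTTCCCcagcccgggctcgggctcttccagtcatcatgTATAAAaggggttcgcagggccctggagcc
Cxcl10: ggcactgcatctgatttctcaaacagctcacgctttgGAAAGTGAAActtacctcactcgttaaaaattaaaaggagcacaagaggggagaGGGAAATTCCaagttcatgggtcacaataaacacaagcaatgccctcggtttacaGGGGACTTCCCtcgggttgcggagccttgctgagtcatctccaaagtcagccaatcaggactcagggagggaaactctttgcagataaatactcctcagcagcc

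Cxcl1, Cxcl2 and Cxcl3 held the same 11 bases, GGGAATTTCCC, starting 71, 97 and 73 bases upstream of the start. Those letters, read on either strand, occur in 14 of the 32851 RefSeq promoter windows of the same length (300 bases, 250 before and 50 after the start). Cxcl10 held 2 matches, GGGAAATTCC at 159 and GGGGACTTCCC at 104 bases upstream. The NF-κB consensus as searched, on both strands and with overlapping matches counted once, was present in 8.46% of all windows.
Cxcl10 also held GAAAGTGAAA 213 bases upstream, a match to the core of the interferon-stimulated response element, which was searched as 2 copies of GAAA with 2 bases between them and is found in 3.44% of windows. Windows were held for 7 of the 9 genes, all but Cxcl11 and Cxcl16. In the Cxcl14 window the same core was matched by GAAACAGAAA 172 bases upstream, and the interferon-γ-activated site, searched as TTCNNNGAA and found in 8.30% of windows, by TTCTGAGAA at 191. The Cxcl14 window lies inside the outer limits of the RefSeq gene. Its distances therefore hold for the transcript start used and not for every start of the gene. The Cxcl9 window had no match to the NF-κB or interferon motifs, and the Cxcl12 window had no match to any motif searched. TATAAA, present in 13.6% of windows, was matched in Cxcl3 at 30 and in Cxcl9 at 195 bases upstream. These matches are descriptions of letters only.

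Each level below is the log2 intensity of a probe minus the 75th percentile of its own array, and each log2 fold change is overexpression minus control. Levels of different probes are not comparable with each other on this scale. The scanner software marks each spot as well above background or not, and only probes marked so on all 3 arrays of either group entered the tests. Tests were made with limma over these 38919 probes, with Benjamini-Hochberg adjustment and a threshold of 0.05. For a single probe, an exact permutation test over 6 arrays cannot go below a two-sided p of 0.1.
Several facts of the series bear on every value. The 75th percentile of the intensity lay between 1617 and 1893 on the control arrays and between 856 and 1268 on the overexpression arrays, so all overexpression arrays were dimmer. Between 41122 and 45165 of 59305 spots were well above background. Slide 1 carried replicates 1 and 2 of both groups, and slide 2 replicate 3 of both. The median log2 fold change over all probes was 0.25 with this scaling, and quantile normalization brought it to 0.05. The targeted gene, Ppargc1a, was close to background on its 2 probes. The first passed the background mark on 2 arrays per group, at -6.21, -6.37 and -7.71 in control and -5.70, -5.28 and -5.90 on overexpression arrays, and the second on 2 control arrays and 1 overexpression array. It was not tested and gives no firm check of the labels, so each direction given is that of the labels. Gene lists are counted here on the brightest tested probe of each gene, of which 34.8% of 17062 were higher and 18.5% lower (21.4% and 21.1% after quantile normalization). Of 13 markers of microglia or macrophages, 11 were well above background on all 6 arrays, while Cx3cr1 and P2ry12 were not on any. In this list 5 genes were higher and Tmem119 was lower (-2.68, adjusted p = 8.0e-05), and after quantile normalization 0 were higher and 2 lower.

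Among the CXC ligands, 1 probe each of Cxcl12, Cxcl14 and Cxcl16 was higher on the overexpression arrays and none was lower (0 at an unadjusted p under 0.05). That is 3 of 7 tested probes (42.9%), beside 35.4% of all probes called higher and 18.4% called lower. After quantile normalization the same 3 probes passed, beside 22.9% of all probes higher and 20.6% lower. The median log2 fold change of the 7 was 0.19, against 0.25 over all probes. In a bulk culture, more cells that make a transcript and more of it per cell cannot be told apart.

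**Figure D1:**
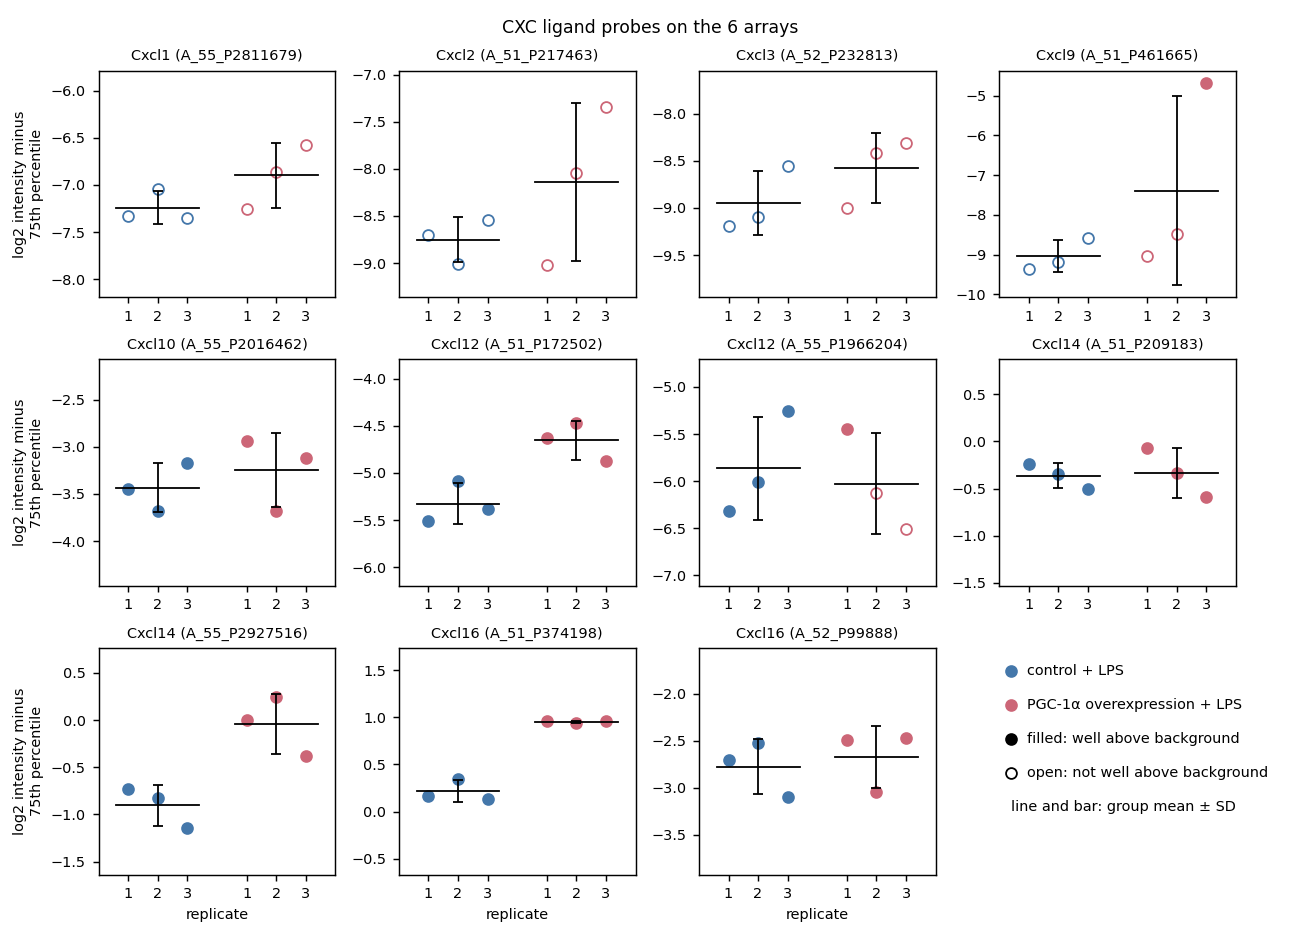
Scaled log2 signal (y axis, each panel with its own range) of the 11 CXC ligand probes on the 3 control (blue) and 3 overexpression (red) arrays. Lines and bars give the group mean and SD, and open points were not well above background. The groups separate for 1 probe each of Cxcl12, Cxcl14 and Cxcl16, and Cxcl1, Cxcl2 and Cxcl3 have open points throughout.

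The neutrophil-attracting ligands were at or near background on every array. Cxcl1, a main ligand of Cxcr2, had levels of -7.33, -7.04 and -7.35 in control and -7.26, -6.87 and -6.58 on overexpression arrays. The groups overlapped, and the probe was not well above background on any array. Its intensity was 7.34 to 13.3, and between 1 and 11 of the 308 negative control spots on the same array were as bright or brighter, so Cxcl1 stood above most of them.
Cxcl2, which encodes the related chemokine MIP-2, was at -8.70, -9.01 and -8.55 in control and at -9.02, -8.04 and -7.35 on overexpression arrays, with between 9 and 265 negative controls as bright or brighter. Cxcl3 was at -9.19, -9.09 and -8.56 in control and at -9.00, -8.41 and -8.31 on overexpression arrays, with 55 to 249 of the negative controls at or above it. Both genes thus lay within the range of the negative controls on most arrays. In a fit without the filter on dim probes, none of the 3 passed, with differences at background level of 0.34 for Cxcl1 (adjusted p = 0.25), 0.62 for Cxcl2 (adjusted p = 0.26) and 0.37 for Cxcl3 (adjusted p = 0.28).

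**Figure D2:**
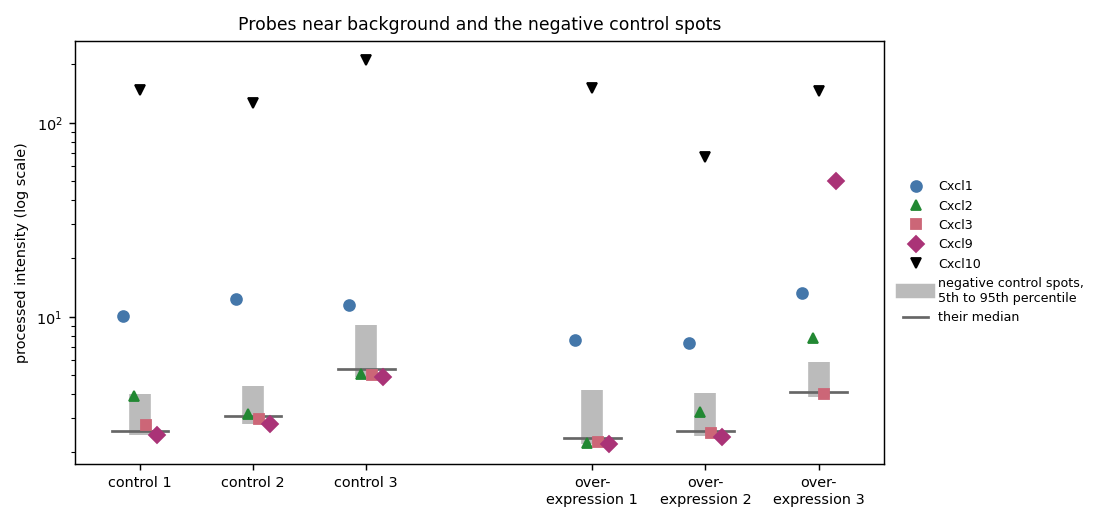
Processed intensity (y axis, log scale) of the Cxcl1, Cxcl2, Cxcl3, Cxcl9 and Cxcl10 probes on each array, beside the 308 negative control spots of that array (grey bar, 5th to 95th percentile, with the median as a line). Cxcl9 lies at the lower end of the grey bars on 5 arrays and at 49.9 on overexpression array 3, and Cxcl10 lies above the bars on all 6.

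Among the interferon-induced ligands, Cxcl9 was measurable on 1 array only. Its levels were -9.36, -9.18 and -8.59 in control and -9.03, -8.47 and -4.67 on overexpression arrays. Intensity was 2.21 to 4.92 on 5 arrays, where at least 280 of 308 negative controls were as bright or brighter, and 49.9 on overexpression array 3, where 1 was. The difference of the means, 1.65, was 0.29 without that array, and the unfiltered fit did not call it (adjusted p = 0.26).
Cxcl10, which encodes IP-10, was well above background on all 6 arrays, at -3.45, -3.68 and -3.17 in control and -2.93, -3.69 and -3.12 on overexpression arrays. The groups overlapped over nearly their whole range. The log2 fold change was 0.19 (SE 0.23, 95% interval -0.34 to 0.71, adjusted p = 0.50 in limma; exact permutation p = 0.6, two-sided). Within slide 1 it was 0.26 and within slide 2 it was 0.05. By the mean absolute difference of centred log2 levels over the 6 arrays, the genes most like Cxcl10 among 16295 compared were Mfn1 (0.070), Prr3 (0.085) and Cenpl (0.087). None of these 3 was called in limma either (adjusted p = 0.70, 0.34 and 0.45). The closest of so many genes are close by selection, so the likeness is a description only.

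Cxcl12, the SDF-1 chemokine that acts on Cxcr4, was measured by 2 probes, which differed. The probe for transcript NM_001012477 (A_51_P172502) was at -5.51, -5.09 and -5.38 in control and at -4.63, -4.46 and -4.87 on overexpression arrays. Its unscaled intensities were low, at 35.5, 47.8 and 45.5 in control and 46.7, 38.8 and 43.4 on overexpression arrays. These overlapped between the groups, so the separation appeared only after scaling to the 75th percentile of each array. On the scaled levels, all 3 overexpression arrays were above all control arrays. The means were -5.33 ± 0.21 (SD, n = 3) and -4.66 ± 0.20 (SD, n = 3), a rise of 0.67 (SE 0.17, 1.59-fold, adjusted p = 0.013 in limma). It was 0.75 within slide 1 and 0.51 within slide 2. Relative to the median of all probes it was 0.42 and no longer passed (adjusted p = 0.075), and after normexp background correction with quantile normalization it was 0.22 (adjusted p = 0.094).
The probe for transcript NM_021704 (A_55_P1966204) was dim, at -6.32, -6.01 and -5.26 in control and at -5.45, -6.13 and -6.50 on overexpression arrays. It passed the background mark on all control arrays but on only 1 overexpression array, and the groups overlapped. The log2 fold change was -0.16 (SE 0.34, adjusted p = 0.70), with 0.38 within slide 1 and -1.25 within slide 2, and under normexp with the 75th percentile it was 0.44 (adjusted p = 0.020). This probe has no settled direction.

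Cxcl14, also known as BRAK, gave a second pair of probes that differed. The probe for the predicted transcript XM_006517307 (A_55_P2927516) was at -0.73, -0.82 and -1.15 in control and at 0.01, 0.25 and -0.38 on overexpression arrays. No overexpression array fell within the control range. The means were -0.90 ± 0.22 (SD, n = 3) and -0.04 ± 0.32 (SD, n = 3), a rise of 0.86 (SE 0.20, 1.81-fold, adjusted p = 0.0089 in limma). It was 0.90 within slide 1, 0.77 within slide 2 and 0.88 after quantile normalization, and it passed in each of the alternatives that gave a test.
The probe for the curated transcript NM_019568 (A_51_P209183) was at -0.23, -0.35 and -0.51 in control and at -0.06, -0.34 and -0.59 on overexpression arrays. These groups overlapped fully, with a log2 fold change of 0.03 (SE 0.17, 95% interval -0.36 to 0.42, adjusted p = 0.89). The rise of the other probe lay outside that interval, so the 2 probes of Cxcl14 gave different answers at similar precision. The difference between the probes was not itself tested.

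Cxcl16, the transmembrane chemokine that also serves as a scavenger receptor, was measured by 2 probes with the same accession, NM_023158. The probe A_51_P374198 was at 0.17, 0.35 and 0.13 in control and at 0.96, 0.94 and 0.96 on overexpression arrays. The overexpression arrays were close together and all above the control arrays. The means were 0.22 ± 0.12 (SD, n = 3) and 0.95 ± 0.013 (SD, n = 3), a rise of 0.74 (SE 0.13, 1.67-fold, adjusted p = 0.0032 in limma). It was 0.69 within slide 1, 0.83 within slide 2 and 0.69 after quantile normalization, and relative to the median of all probes it was 0.49 (adjusted p = 0.018).
The probe A_52_P99888 was at -2.70, -2.53 and -3.09 in control and at -2.50, -3.05 and -2.47 on overexpression arrays. Its groups overlapped, and the log2 fold change was 0.10 (SE 0.21, 95% interval -0.39 to 0.60, adjusted p = 0.71), with -0.16 within slide 1 and 0.62 within slide 2. All 3 genes with 2 tested probes therefore had 1 probe called higher and 1 not called. Where the probes lie in the transcripts is not known here, and they are no replicates of each other.

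**Figure D3:**
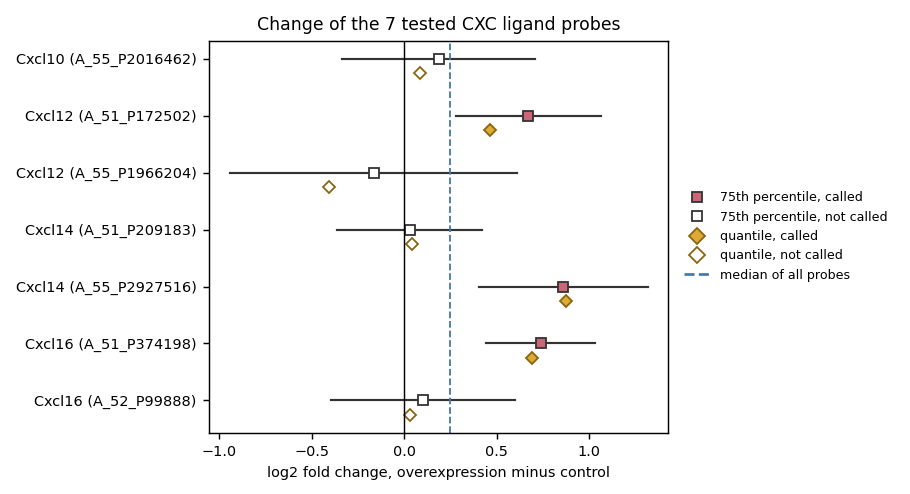
Log2 fold change, overexpression minus control (x axis), of the 7 tested probes. Squares with bars give the 75th percentile scaling with its 95% interval, diamonds quantile normalization, filled symbols passed an adjusted p of 0.05, and the dashed line is the median of all probes (0.25). The same 3 probes are filled under both scalings, and in each gene with 2 probes the other one is open.

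Cxcl12 and Cxcl14 are also made by fibroblasts, and the fibroblast markers moved on the same arrays. All 4 markers of this list were well above background on all 6 arrays and none was at background. Col1a1 (0.77, adjusted p = 0.0032) and Col1a2 (1.12, adjusted p = 0.0012), the chains of type I collagen, and Dcn (0.97, adjusted p = 0.0022), a proteoglycan, were higher, and Pdgfra (-1.63, adjusted p = 2.9e-04) was lower on its brightest probe, with 1.13 and -0.54 on its other tested probes. After quantile normalization Col1a1 was no longer called (0.22, adjusted p = 0.14). The summed level of the list ran from 3.94 to 4.05 (log2) in control and from 4.73 to 4.999 on overexpression arrays. Col1a1 made up most of this sum, with levels of 3.49 to 3.58 in control and 4.21 to 4.46 on overexpression arrays. Pdgfra, the dimmest, hardly entered it, so the sum says little about the list as a set. Of the other cell types' markers tested, 2 of 4 astrocyte genes were higher, 2 of 4 neuronal genes were higher and 1 was lower, 1 of 2 endothelial genes was higher, and none of 4 oligodendrocyte genes was called, with 3, 3, 2 and 3 of them well above background on all 6 arrays, while the neuronal gene Syt1 and the endothelial genes Cdh5 and Kdr were at background throughout. Of the brightest probes of all genes, 34.8% were higher and 18.5% lower, so the counts of these small marker lists are descriptions. The part of the markers in the results for Cxcl12 and Cxcl14 was not tested.

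**Figure D4:**
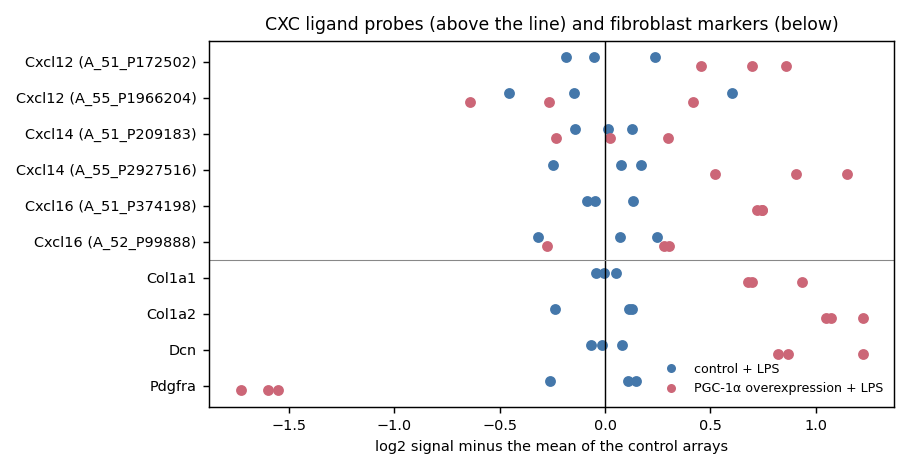
Log2 signal of each array minus the mean of the control arrays (x axis) for the probes of Cxcl12, Cxcl14 and Cxcl16 (above the grey line) and for the brightest probes of 4 fibroblast markers (below it). Blue points are control arrays and red points overexpression arrays. The red points lie to the right of the blue ones for 1 probe of each ligand and for Col1a1, Col1a2 and Dcn, and to the left for Pdgfra.

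Of 6 other CXC ligand genes, 2 were tested and neither passed (1 at an unadjusted p under 0.05). Pf4, the platelet factor that macrophages also make, had a difference of 0.41 (adjusted p = 0.050, just over the threshold, with 1 control value dropped as an outlier spot), which was -0.01 after quantile normalization. Cxcl17 had a difference of -0.10 (adjusted p = 0.72). Cxcl13, Cxcl15 and Ppbp were not well above background on any array.
Cxcl5, a neutrophil-attracting relative of Cxcl1, was not well above background on any control array, at -8.42, -8.43 and -8.29, and was so on 1 overexpression array, at -6.13, -6.26 and -6.57. All 3 overexpression arrays were above the control arrays. No fold is given for it.

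The receptors of these ligands included larger changes in both directions than any called ligand probe. Of 8 receptor genes 7 were tested, 4 were lower and 2 higher, with a median log2 fold change of -0.67, beside the 34.8% higher and 18.5% lower among the brightest probes of all genes; with 7 genes this is a description. Cxcr3, the receptor of Cxcl9 and Cxcl10, was at -2.26, -2.51 and -2.94 in control and at -4.50, -4.44 and -5.02 on overexpression arrays, a fall of 2.08 on the log2 scale (SE 0.23, adjusted p = 5.0e-04).
Cxcr1, a receptor for neutrophil-attracting ligands, fell by 1.64 (adjusted p = 2.8e-04) and Cxcr5, the receptor of Cxcl13, fell by 0.75 (adjusted p = 0.0070), the latter well above background on 1 overexpression array. Cxcr4, through which Cxcl12 signals, was at 1.04, 0.75 and 0.54 in control and at 0.18, 0.24 and -0.09 on overexpression arrays, a fall of 0.67 (SE 0.17, adjusted p = 0.014). The groups did not overlap for any of these 4 receptors.
Ackr1, an atypical receptor that binds many chemokines without signalling, rose by 1.02 (adjusted p = 0.0044). Cxcr2, the receptor of Cxcl1, Cxcl2 and Cxcl3, rose by 0.41 (adjusted p = 0.047) and did not pass after quantile normalization (0.33, adjusted p = 0.087). Cxcr6, which binds Cxcl16, had a difference of -0.37 (adjusted p = 0.24). Ackr3, a scavenger of Cxcl12, was not well above background on any array, at -7.77, -7.69 and -7.58 in control and at -6.75, -6.19 and -7.04 on overexpression arrays.

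**Figure D5:**
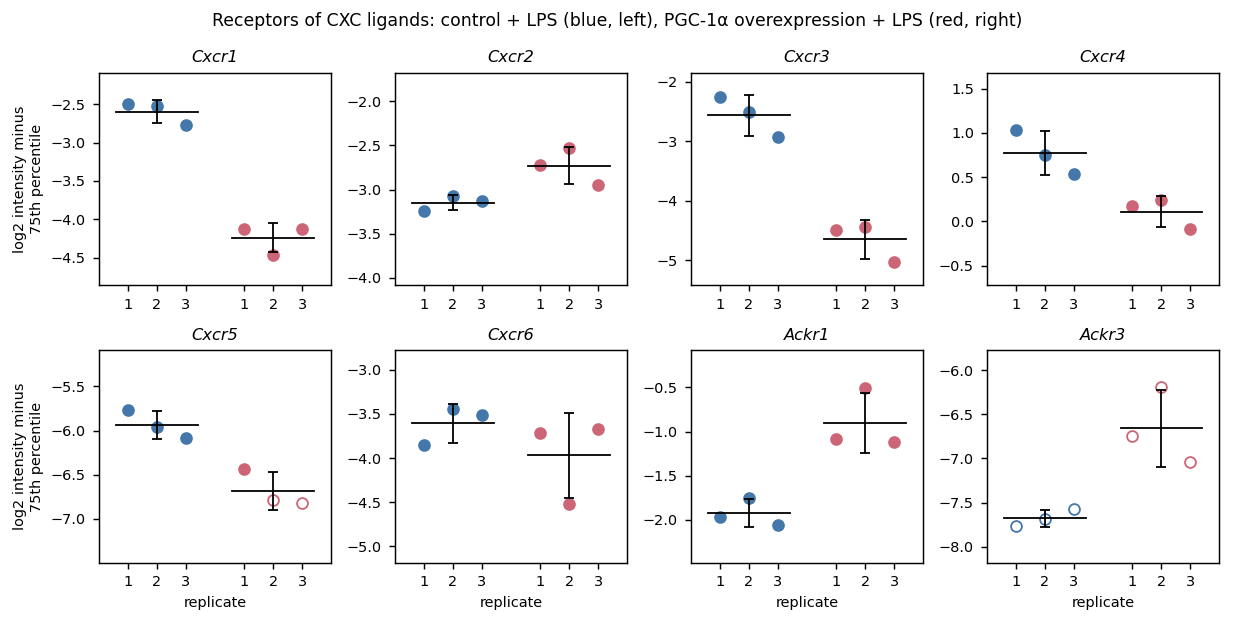
Scaled log2 signal (y axis, each panel with its own range) of the brightest probe of 8 receptors of CXC ligands on 3 control (blue) and 3 overexpression (red) arrays, with the group mean and SD; open points were not well above background. Cxcr1, Cxcr3, Cxcr4 and Cxcr5 lie lower on all overexpression arrays, Ackr1 and Cxcr2 higher.

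Of 3 genes whose products cut CXC ligands, Dpp4, which trims Cxcl10 and Cxcl12 at the amino end, rose by 0.84 (adjusted p = 0.0032). The sheddases of Cxcl16 had differences of -0.20 for Adam10 (adjusted p = 0.32, 1 control value dropped) and 0.17 for Adam17 (adjusted p = 0.28).
The regulators of the inflammatory ligands in the NF-κB and mRNA stability lists were mostly not called. Among the brightest probes of all genes, 34.8% were higher and 18.5% lower. Of 14 genes of the NF-κB pathway, all tested, 1 was higher, 2 were lower and 11 were not called, with a median log2 fold change of 0.03. Nfkbie, which encodes the inhibitor IκBε, fell by 2.30 (adjusted p = 5.2e-05), and Tnfaip3, which encodes the feedback inhibitor A20, fell by 1.07 (adjusted p = 0.0042). On its brightest probe Nfkb2 rose by 0.64 (adjusted p = 0.025) and was not called after quantile normalization (0.13). Its other tested probe had a log2 fold change of 0.08. Of 9 regulators of chemokine mRNA stability, 7 were tested and 0 passed in limma (1 at an unadjusted p under 0.05), while 2 (Mapk14 and Mapkapk2) were lower after quantile normalization.
Of 30 genes of interferon signalling and interferon-stimulated genes, 28 had a probe and 26 were tested, with 6 higher, 10 lower and 10 not called (5 higher and 9 lower after quantile normalization), and their median log2 fold change was -0.22. Among all genes the balance ran the other way, with 34.8% higher and 18.5% lower (21.4% and 21.1% after quantile normalization). Whether the list differs from all genes was not tested, so the count is a description. Gbp2, counted among the higher genes, entered the tests only through the overexpression arrays. It was well above background on all 3 overexpression arrays and on 0 control arrays. Its levels were -7.27, -7.40 and -8.02 in control and -5.40, -5.42 and -5.64 on overexpression arrays. The control side was at background, so no fold is given for it. Ifnb1, which encodes interferon-β, rose by 0.89 (adjusted p = 0.0068) and Isg15, a ubiquitin-like interferon-stimulated protein, by 0.77 (adjusted p = 0.0088). Irf3, a factor that LPS activates through Toll-like receptor 4, fell by 1.64 (adjusted p = 2.2e-04), and Cmpk2, an interferon-stimulated kinase, fell by 2.54 (adjusted p = 5.3e-05).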

How the data were processed

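RNA of 6 LPS-stimulated BV2 samples was analysed, and groups and replicate numbers came from the sample labels. The sample titles do not state the slide. The authors deposited scanner intensity values of the green channel from Agilent Feature Extraction, with background subtracted and not normalized between arrays. The dye is Cy3 per the labels and Cy5 in the protocol. The authors also deposited log2 values of 42110 probes normalized in GeneSpring, which served as an alternative and include the 7 tested CXC ligand probes.
Here the log2 intensity minus the 75th percentile of the array over its non-control spots was used. Outlier spots were dropped and repeated spots averaged. A probe needed values on 2 or more arrays per group. Accessions of 33767 probes (59.7%) matched RefSeq genes. The two-sided test was limma's moderated linear model (limma 3.58.1, R 4.3.3), tested first on simulated data, and tables and plots were made with Python 3.11.15 and matplotlib 3.10.9. Gene lists used the brightest tested probe of a gene. All member probes were named, and the genes most like a member were the 3 with the smallest mean absolute difference.
The members, lists and tests were chosen with earlier results of these data known. Alternatives were other normalizations (quantile, median), normexp with an offset of 50 on the median signal, other filters, the slide or replicate as a block, a variance trend, the authors' log2 values, the brightest probe only and each array left out. Changes relative to the median of all probes and Cxcl9 without 1 array were added after seeing the data. Precision is limited by the number of arrays. The array design names an older build than RefSeq's, so no coordinates are given apart from those of the RefSeq promoter windows.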

Additional observations from a re-analysis of the deposited data

Results flagged for a closer look

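Cxcl9 and Cxcl5 are given here because a signal appeared in probes outside the tests, on overexpression arrays and not on control arrays. The Cxcl9 probe was well above background on overexpression replicate 3 alone, at -4.67, while its other 5 arrays lay between -9.36 and -8.47. The Cxcl5 probe was well above background on overexpression replicate 1 alone, at -6.13, and its other overexpression arrays were at -6.26 and -6.57 against -8.43 to -8.29 in control. Neither probe met the filter for the tests, and Cxcl9 did not pass in the fit without that filter.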

How the results depend on the processing

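Over 18 to 20 alternatives per probe, Cxcl10, both Cxcl14 probes and both Cxcl16 probes kept their side of the threshold where tested. Between 2 and 4 CXC ligand probes were called higher and 0 lower. The called Cxcl12 probe no longer passed under normexp with quantile normalization (0.22) or relative to the median of all probes (0.42), and the other Cxcl12 probe turned to 0.44 under normexp with the 75th percentile. Within slide 2, with 1 array a group and no test, the values moved to -1.25 for the Cxcl12 probe A_55_P1966204, 0.83 for the Cxcl16 probe A_51_P374198 and 0.62 for A_52_P99888. Leaving out each array in turn gave 0.03 to 0.41 for Cxcl10, 0.58 to 0.79 and -0.45 to 0.14 for Cxcl12 (A_51_P172502 and A_55_P1966204), -0.10 to 0.16 and 0.71 to 1.03 for Cxcl14 (A_51_P209183 and A_55_P2927516), and 0.69 to 0.80 and -0.06 to 0.29 for Cxcl16 (A_51_P374198 and A_52_P99888), with 3 called each time. Of all probes, 13793 were higher and 7150 lower (65.9% of calls higher). The number higher was 8908 after quantile normalization (52.6% of calls higher), 7462 with normexp and quantile normalization (49.1%), 8864 in the authors' log2 values (51.9%), 6733 relative to the median (40.1%) and 6290 for the brightest probe of each gene, where 3343 were lower, fewer because fewer features were tested. Normexp with the 75th percentile gave 76.8% of calls higher. With an array left out, 9871 to 13963 were higher and 5726 to 7063 lower. Same-numbered arrays of the groups deviated together with correlations of -0.21, 0.0032 and 0.59. Control array 1 with overexpression array 2 gave 0.53, and the replicate 3 arrays share slide 2. The numbers thus showed no clear pairing, though 3 arrays a group cannot exclude one. With the replicate number as a block, 15271 probes were higher and 7532 lower and no CXC ligand call changed. The cause of these moves was not tested. Dim probes are limited by signal over background, which kept Cxcl1, Cxcl2, Cxcl3 and Cxcl9 out of the tests.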
